A study of Strongylocentrotus droebachiensis with 6 samples.

Results

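GATAe, FoxA, Endo16, otx and eve, genes used in forming the sea urchin gut, were measured in embryos of reduced size. They were taken as the 5 rows of the deposited table whose gene identifier equals one of these symbols, out of 31261 rows. All 5 were found, and all 5 passed the filter on low values, a mean normalised read count of at least 1, which left 18016 rows for testing. Polyadenylated RNA came from wild-type Strongylocentrotus droebachiensis, the green sea urchin, at mesenchyme blastula, the stage when skeleton-forming cells leave the vegetal wall and before the gut folds inward. Intact controls and half-size embryos each gave 3 samples.

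The eggs were treated after fertilisation with ATA (3-amino-1,2,4-triazole) at 1 mM, an agent that stops the envelope around the egg from hardening. Embryos at the 2-cell stage, 3.5 hours after fertilisation, were washed for 15 min in seawater lacking calcium and magnesium and pushed through a needle, so that each blastomere could grow into a half-size embryo. Both groups were raised at 8 °C until 46 hours after fertilisation. The wash and separation times are recorded alike for both groups, which does not say whether the controls also went through the wash and the needle. The labels tie no sample to one of the collection sites, breeding seasons or parents. Each sample is RNA of whole embryos, although the tissue label speaks of explants.

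On the vegetal side of the embryo, nuclear beta-catenin starts a cascade of transcription factors that sets the future gut apart from mesoderm and ectoderm. In the related species Strongylocentrotus purpuratus, Otx and Blimp1/Krox act early in this cascade, GATAe and Otx later keep one another and other endoderm genes active, FoxA drives endoderm and holds mesoderm genes off there, and Eve acts in the veg1 cells at the edge of the vegetal plate. Endo16 is a product of the pathway: it encodes a secreted protein of the vegetal plate and later of the midgut. Otx is also used in ectoderm, so its RNA in whole embryos does not come from endoderm alone.

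Values are normalised read counts, that is, reads divided by the authors' size factor for the library. The reads behind them could be recovered exactly and totalled 1804336 to 2294541 per library. Deviations from the group means linked each half-size library with 1 control library (r = 0.76, 0.63 and 0.52 across 11124 genes, members left out, which are not independent replicates). Every other correlation between the groups was at most 0.0092. Deviations within a group cancel out for each gene, which pushes these other correlations down once the matched ones are positive. Their low values are therefore not separate evidence for the pairs. These pairs, called A, B and C, came from the values, and not from the labels; they are also neighbouring columns of the table. Differences between libraries of one group were large along them, so values are given by pair. Markers of other parts of the embryo were detected in every group, and none of the matched rows was at 0 in all libraries.

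GATAe, a GATA-family transcription factor gene of the endomesoderm, had 268, 210.4 and 162 normalised counts in the half-size libraries of pairs A, B and C, and 317, 298 and 302 in the control libraries. Every half-size library lay below every control library, and the half-size libraries were the more scattered. The means were 214 ± 53.1 and 306 ± 10.2 (SD, n = 3 each), so half-size embryos had 69.9% of the control level. The log2 difference, half-size minus control on the scale of log2(value + 1), was -0.54 ± 0.22 (SE; 95% interval -1.03 to -0.05). In limma-trend, a linear model fitted across all tested rows, the unadjusted p was 0.0334 and the p adjusted over 18016 rows by the Benjamini-Hochberg method was 1.00, so GATAe did not pass the threshold of 0.05. In whole-embryo RNA, fewer cells using a gene and less RNA per cell cannot be told apart.

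The difference in GATAe was unequal between pairs, at -0.24 in A, -0.50 in B and -0.89 in C. With the pair as a block in limma-trend the SE was 0.16 and the 95% interval -0.89 to -0.20 (unadjusted p = 0.00529, adjusted p = 0.660). The half-size library of pair C, which held the lowest value, was also the smallest library, with 134 GATAe reads among 1804336. Its exact Poisson 95% interval, 136 to 192 normalised counts, covers counting error only and lay below the intervals of all 3 control libraries, the lowest of which began at 267. Without that library the unblocked difference was -0.36 (limma-trend unadjusted p = 0.117). Without pair C the blocked difference was -0.37 (limma-trend unadjusted p = 0.0188, adjusted p = 0.546). The spread of the controls, 3.33% of their mean, was less than the counting error of each of these libraries (5.38% to 5.75%), so the control SD understates the error of a control value. In the half-size libraries the spread was 24.8% of the mean against counting errors of 6.07% to 8.64%.

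**Figure D1:**
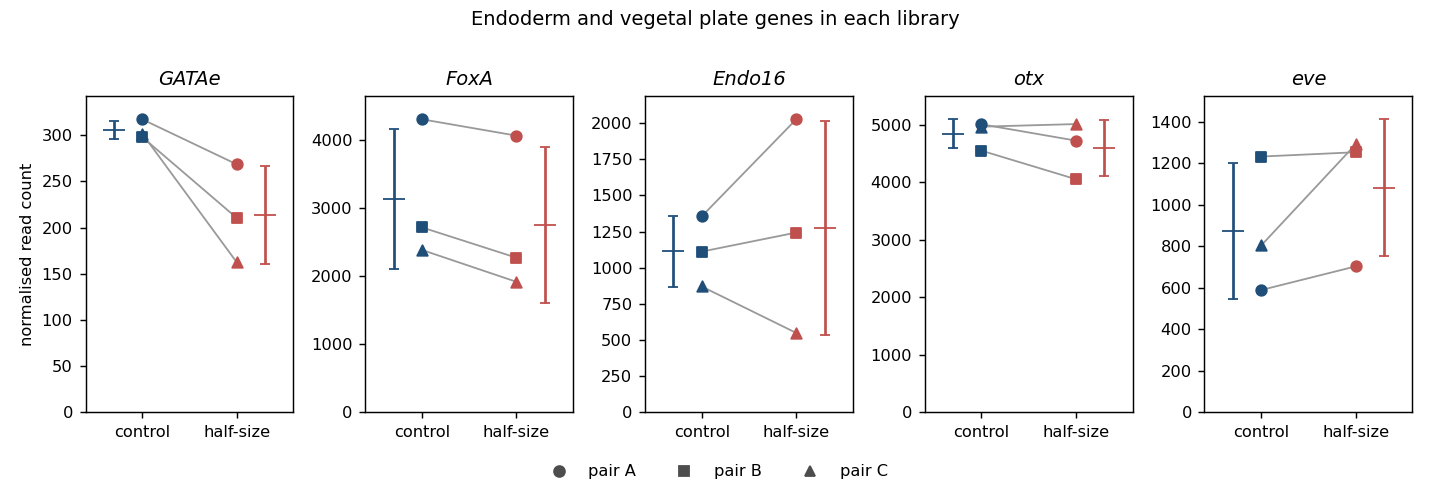
Normalised read counts (vertical axes, from 0) of GATAe, FoxA, Endo16, otx and eve in the 3 control (blue) and 3 half-size (red) libraries. Symbols and grey lines mark pairs A, B and C found from the values, and the bars beside the points give the group mean and SD (n = 3); GATAe alone has groups that do not overlap, with 162 to 268 in half-size and 298 to 317 in control libraries.

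FoxA, a forkhead transcription factor gene of the future gut, had 4058, 2267 and 1914 normalised counts in half-size libraries, against 4298, 2712 and 2382 in the controls of pairs A, B and C. Pair A stood above the other pairs in both groups, and the groups overlapped. The means were 2746 ± 1149 and 3131 ± 1024 (SD, n = 3 each), and the log2 difference was -0.22 ± 0.31 (SE; 95% interval -0.90 to 0.46; limma-trend unadjusted p = 0.490, adjusted p = 1.00). Within pairs the half-size library was the lower one each time, by -0.08, -0.26 and -0.32. With the pair as a block the 95% interval was -0.47 to 0.03 (unadjusted p = 0.0783, adjusted p = 0.936). In unblocked fits the difference was 0.0025 when the half-size library of pair C was left out and 0.034 when the control library of pair A was. Leaving out a single library unbalances the pairs, which differ widely in FoxA; in blocked fits the difference was -0.29 without pair A, -0.20 without pair B and -0.17 without pair C. Of FoxA's variation over the 6 libraries, measured as the sum of squares of log2 values, 92.3% lay between pairs, 6.43% between groups and 1.31% in the rest.

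The homeobox gene otx was the steadiest member. It had 4725, 4054 and 5014 normalised counts in half-size libraries, against 5009.9, 4551 and 4968 in controls. The groups overlapped, and the highest library was only 1.24 times the lowest. Of the 11129 rows with a mean of at least 10, 2.40% had a smaller ratio. The log2 difference was -0.08 ± 0.16 (SE; 95% interval -0.43 to 0.28; limma-trend unadjusted p = 0.629), which corresponds to between 0.740 and 1.21 times the control level. Pairs A and B differed by -0.08 and -0.17 and pair C by 0.01, and the unblocked difference was 0.0085 when the half-size library of pair B was left out. The table has a single otx row, so transcripts from different promoters of the gene could not be separated.

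eve, the even-skipped homeobox gene, had 703, 1253 and 1292 normalised counts in half-size libraries, against 589, 1233 and 804 in the controls of pairs A, B and C. Here pair A was the lowest pair in both groups, opposite to FoxA. The means were 1083 ± 329 and 875 ± 327 (SD, n = 3 each), and the log2 difference was 0.32 ± 0.31 (SE; 95% interval -0.37 to 1.01; limma-trend unadjusted p = 0.326, adjusted p = 1.00). The half-size library was the higher one in each pair, by 0.25, 0.02 and 0.68, and the value in pair B was within counting error, with 1424 and 1431 reads. With the pair as a block the 95% interval was 0.01 to 0.63 (unadjusted p = 0.0454, adjusted p = 0.936). Without pair C the blocked difference was 0.14 (unadjusted p = 0.231), and unblocked fits gave 0.07 without pair A's control library and 0.61 without its half-size library.

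Endo16, the vegetal plate effector, had 2026, 1243 and 549 normalised counts in half-size libraries, against 1355, 1111 and 870.2 in controls. Both groups descended from pair A to pair C, and the half-size libraries held both the highest and the lowest value, a 3.69-fold range against 1.56-fold in controls. The means were 1273 ± 739 and 1112 ± 242 (SD, n = 3 each). Half-size embryos thus had 114% of the control mean, while the log2 difference was 0.03 ± 0.40 (SE; 95% interval -0.87 to 0.92; limma-trend unadjusted p = 0.950). The interval spans 0.546 to 1.90 times the control level, so a change of moderate size in either direction was not detectable here. The pairs went opposite ways, with 0.58 in A, 0.16 in B and -0.66 in C. Without pair C the blocked difference was 0.37 (unadjusted p = 0.00517, adjusted p = 0.398), and without pair A it was -0.25 (unadjusted p = 0.217). Unblocked, it was -0.41 with the half-size library of pair A left out and 0.54 with that of pair C left out.

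**Figure D2:**
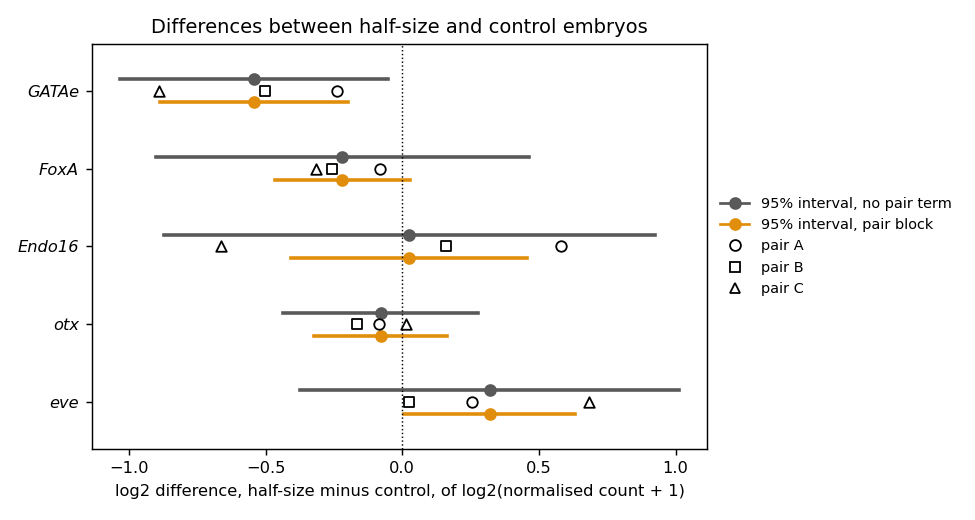
Log2 differences, half-size minus control, of the 5 genes on the scale of log2(normalised count + 1). Filled circles and lines give the limma-trend estimate with its 95% interval without (grey) and with (orange) the pair as a block, and open symbols give pairs A, B and C; the GATAe interval lies below 0 in both fits, the eve interval lies above 0 with the block and spans 0 without it, and the Endo16 pairs run from -0.66 to 0.58.

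Of the 5 genes, 0 passed the threshold after adjustment over all rows, where limma-trend called 0.0% of rows without the block and 0.0167% with it. At an unadjusted p under 0.05, GATAe was the 1 member without the block, against 1.34% of all rows, and GATAe and eve were the members with it, against 5.27%. Groups did not overlap for GATAe alone, against 5.35% of all rows. GATAe, FoxA and eve had 1 direction in all 3 pairs, which 25.0% of all rows had. The median log2 difference over the 5 genes was -0.08, beside -0.00047 over all tested rows. The share of 5 genes was not tested against these backgrounds. In count tests on the recovered reads without the block, GATAe had a log2 difference of -0.52 in edgeR (unadjusted p = 0.0439, where 1.14% of rows had a p under 0.05) and -0.51 in DESeq2 (unadjusted p = 0.0485, with 0.425% of rows). The authors' deposited table gives GATAe a log2 fold change of -0.51 (SE 0.26, p = 0.0484, adjusted p = 1.00), the 98th smallest p of 23976. There 102 rows (0.425%) have a p under 0.05, as in the DESeq2 fit, which used the same reads and gave nearly the same GATAe values. The 2 are therefore not independent results. For the other members the authors' deposited table gives log2 fold changes of 0.31 for eve, -0.19 for FoxA, 0.19 for Endo16 and -0.08 for otx, with p from 0.357 to 0.690.

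Within a library, the ratio of 2 members does not depend on the library's scaling. For GATAe over otx, recovered reads gave ratios of 0.0568, 0.0519 and 0.0324 in half-size and 0.0633, 0.0655 and 0.0607 in control libraries of pairs A, B and C. All 3 control ratios lay above all half-size ratios, and this was the 1 of the 10 possible member ratios with no overlap. GATAe by itself had no overlap and otx was the steadiest member, so this ratio repeats much of the GATAe result. An exact test of 3 against 3 libraries cannot give a p under 0.1. The share of such ratios among other genes was not computed. GATAe was also lower in every pair relative to FoxA (-0.16, -0.24 and -0.58 on the log2 scale), to Endo16 (-0.82, -0.66 and -0.23) and to eve (-0.50, -0.53 and -1.58). FoxA over eve was lower in half-size libraries of each pair too, by -0.34, -0.28 and -1.0, and so was otx over eve, by -0.34, -0.19 and -0.67. These ratios share the values of GATAe, FoxA, otx or eve and were not tested.

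The members did not all vary together across libraries. Averaged over both libraries of a pair, FoxA had 4178, 2490 and 2148 normalised counts in pairs A, B and C, Endo16 had 1690, 1177 and 710, and GATAe had 293, 254 and 232. All 3 were thus highest in A and lowest in C. eve had 646, 1243 and 1048, the lowest value in A. The pair took 22.3% of the sum of squares for GATAe and 62.6% went to the group, whereas the pair took 75.3% to 92.3% for the other members. Medians over the 11129 rows used above were 65.5% for the pair and 6.45% for the group. The group share of GATAe reflects the same values as its lack of overlap. The mean absolute distance between centred log2 values over the 6 libraries was smallest for GATAe and otx (0.26), GATAe and FoxA (0.27) and FoxA and Endo16 (0.29), and it was largest for eve against FoxA (0.74) and Endo16 (0.75). This distance depends on how much a gene varies, and otx varied little, so a small value does not show a shared pattern. By pair otx had 4868, 4303 and 4991 normalised counts, and unlike GATAe it was highest in C.

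**Figure D3:**
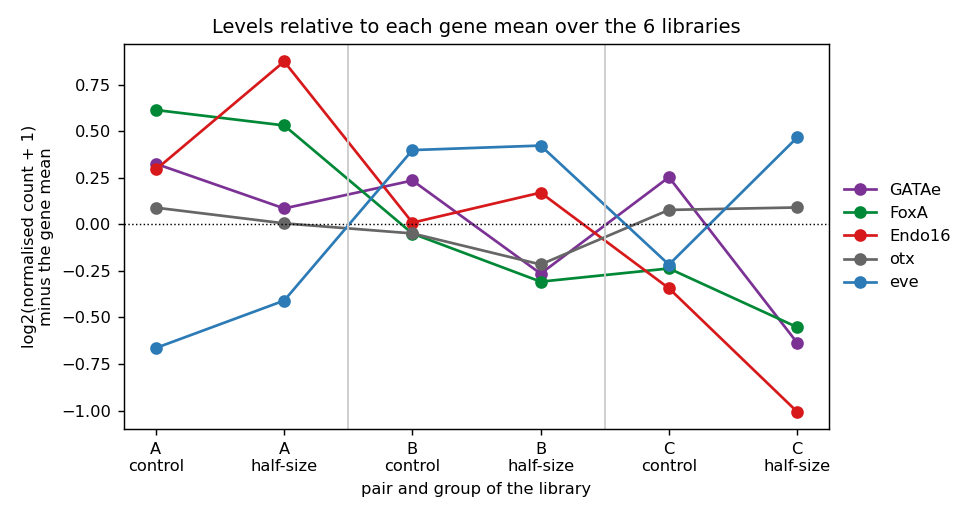
log2(normalised count + 1) of each gene minus its own mean over the 6 libraries (vertical axis), with libraries ordered by pair and, within a pair, control before half-size. FoxA and Endo16 are high in both libraries of pair A, where eve is low, and in pair C GATAe and Endo16 are lower and eve higher in the half-size library than in its control.

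Other genes of the endoderm pathway were taken from a list of 41 regulator symbols, synonyms included. Only 10 rows of the table carried one of them, and 8, the 4 members GATAe, FoxA, otx and eve included, passed the low-value filter. Of these 8, 4 had negative and 4 positive differences, with a median of -0.03, and 0 passed after adjustment. blimp1/krox, which encodes an early zinc-finger repressor of the vegetal plate, averaged 1914 ± 221 normalised counts in the half-size group, against 1906 ± 376 in the control group (SD, n = 3 each). Its log2 difference was 0.02 ± 0.20 (SE). The ETS-family gene Elk had 329, 403 and 488 in half-size libraries and 229, 332 and 239.8 in controls, a log2 difference of 0.61 ± 0.23 (SE; limma-trend unadjusted p = 0.0234, adjusted p = 1.00). Its half-size library was higher in each pair (0.52, 0.28 and 1.02), and the groups overlapped by 1 library each. The Sox-family gene soxd1 differed by -0.35 ± 0.28 (SE), and the LIM homeobox gene Lim1 by 0.20 ± 0.22 (SE). Reads of lox, a gut homeobox gene, numbered 3, 1 and 0 in control libraries and 0 in each half-size library, and those of hh, the hedgehog ligand gene, at most 2 per library, too few to show a difference. Endo16 was the only endoderm effector matched by symbol.

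For the Wnt and beta-catenin input that precedes endoderm, 42 symbols gave 5 rows, of which 4 passed the filter. All 4 had positive differences, with a median of 0.17, and 0 passed after adjustment. For each of them the pairs lay on both sides of 0. Wnt8, a ligand gene of the vegetal side, had 581, 814 and 965 normalised counts in half-size libraries, against 479.9, 855 and 709 in controls. Its log2 difference was 0.22 ± 0.26 (SE), with 0.27, -0.07 and 0.44 in pairs A, B and C. SoxB1, whose protein opposes beta-catenin in S. purpuratus, averaged 4324 ± 199 and 4054 ± 685 (SD, n = 3 each), which gave a log2 difference of 0.11 ± 0.18 (SE). wnt1 differed by 0.12 ± 0.25 and Tcf/Lef, the DNA-binding partner of beta-catenin, by 0.23 ± 0.43 (SE), the latter from 9 to 35 reads per library.

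**Figure D4:**
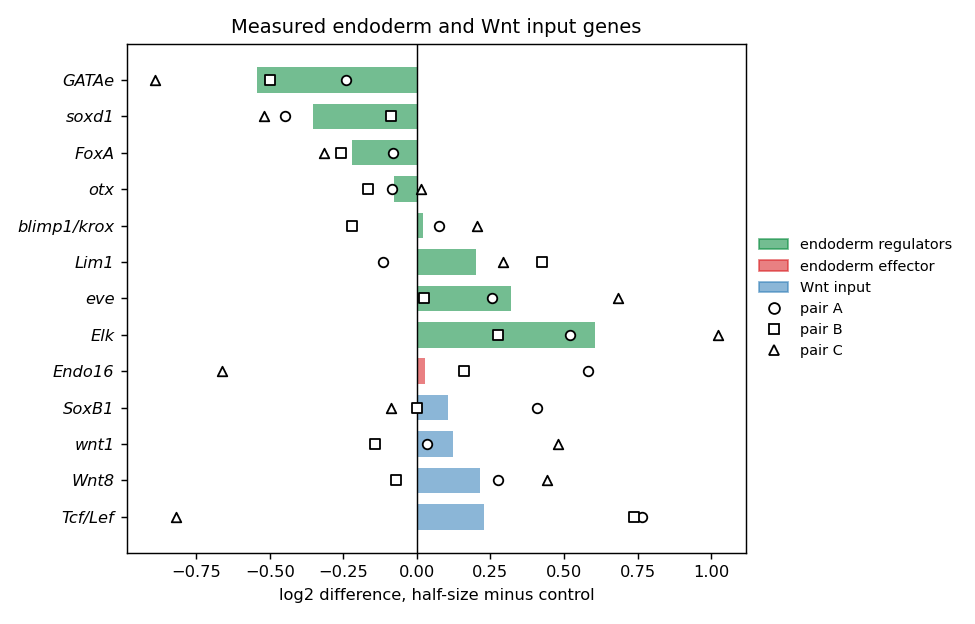
Log2 differences, half-size minus control (bars, limma-trend), for the 13 tested rows of the endoderm regulator, endoderm effector and Wnt input lists, with open symbols for pairs A, B and C. GATAe at -0.54 and Elk at 0.61 are the ends of the regulator list. The pairs of otx, Lim1, blimp1/krox, Endo16, Wnt8, SoxB1, wnt1 and Tcf/Lef lie on both sides of 0.

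The rows with gene names whose pattern over the 6 libraries came nearest to each member were found by the same mean absolute distance, among 190 such rows with a mean of at least 10. For eve they were SLC12A2 and Wnt8 (0.14 each, where the median row lay at 0.50), and Wnt8 like eve was lowest in pair A in both groups. For otx they were rab3 and PMCA (0.04 and 0.05, median 0.31), and for FoxA COLP3alpha and erg (0.18 each, median 0.45). For Endo16 they were Rag2L and c3 (0.11 and 0.16, median 0.52), and for GATAe SNAP-25 and soxd1 (0.15 and 0.17, median 0.37). SNAP-25 had 6 to 19 reads per library, Rag2L 11 to 39, c3 12 to 49 and soxd1 21 to 44, so these rows carry wide counting error.

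Markers of other cell types moved with some of these differences. For skeletogenic cells 7 of 13 listed markers were matched, and their summed normalised counts ran from 4062 to 11308 in half-size and from 3913 to 7899.6 in control libraries. As with Endo16, the sum peaked in pair A's half-size library, and in pair C it was lower in the half-size library (4062 against 5571). msp130, the surface glycoprotein gene of these cells, had 5464, 2109.9 and 2099 in half-size and 3962, 2060.3 and 2955 in control libraries. For non-skeletogenic mesoderm 2 of 8 markers were matched, with sums of 362 to 953 and 539 to 959.8. GATAc, a mesoderm GATA-factor gene, had pair differences of 0.37, 0.13 and -0.68, beside 0.58, 0.16 and -0.66 for Endo16. gcm, the other matched gene and a regulator of pigment cells, differed in 1 direction in all 3 pairs, as GATAe did, by -0.59, -0.72 and -0.28 (limma-trend unadjusted p = 0.373, and 0.00374 with the block). For ectoderm 10 of 16 markers gave sums of 4295 to 8000.5 and 4735 to 5832. This sum too peaked in pair A's half-size library and was lower in the half-size library of pair C (4619 against 4852). In pair B, unlike Endo16, it was also lower there (4295 against 4735). Abundant markers weigh most in such a sum. SPEC1 and spec2c, with the highest means, were higher in the half-size library of pair A, by 0.56 and 0.57. The other ectoderm markers went both ways in that pair, from -0.78 for Dlx to 0.55 for ARS, which had few reads. For the apical plate 3 of 7 markers gave 377 to 543 and 419.5 to 568. The highest marker means of ectoderm and apical plate were SPEC1, a calcium-binding protein gene of aboral ectoderm, with 3054 ± 1298 against 2536 ± 479, and FoxJ1, a ciliary regulator, with 257 ± 48.1 against 192 ± 30.6 (SD, n = 3 each). Of the 10 ectoderm markers 7 had negative differences, with a median of -0.22, and of the 3 apical markers 1 did. IrxA and Dlx, ectoderm homeobox genes, and NK2.1, an apical one, were chosen after their values were seen. Like GATAe they were lower in every pair, with log2 differences of -0.81, -0.99 and -1.03 (limma-trend unadjusted p = 0.00336, 0.0130 and 0.0261). The 2 other apical markers, foxq2 and FoxJ1, were instead higher in every pair. Their log2 differences were 0.61 and 0.41 (limma-trend unadjusted p = 0.363 and 0.0937). Groups did not overlap for IrxA, Dlx and a further ectoderm marker, hnf6 (-0.23, limma-trend unadjusted p = 0.290), nor for 5.35% of all rows. None of the matched markers passed in limma-trend, with or without the block, after adjustment over all rows. The part of these markers, and of depth, in the differences of the 5 genes was not tested.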

How the data were processed

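Libraries of polyadenylated RNA from 6 samples were made with a stranded kit, per the labels' protocols. Bowtie2 2.2.2, DESeq and edgeR are named, without a role, in the submitters' processing notes. Per the file headers, genes are those of NCBI for Spur_4.2, an assembly of S. purpuratus, so reads were assigned to genes of a related species. How reads were counted, and with which strand setting, was not given in the sources used here, so overlapping or antisense genes and near-identical copies cannot be separated. The deposited values are a signal: read counts divided by a size factor per library, by the authors, and 100% were whole multiples of 1 read within 1e-06. The authors also deposited a mean signal, log2 fold changes, a test score, p-values and adjusted p-values. Headers repeat 1 name per group, so columns were assigned to groups without replicate numbers. The labels call the samples biological replicates but name no parents, so p-values cover only the spread among these samples, which may be technical.

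The plan set a count test as main test for raw counts and limma-trend for scaled values, as deposited here. Rows with a mean of at least 1 were therefore tested two-sided with limma-trend on log2(value + 1), in limma 3.58.1 under R 4.3.3, and p-values were adjusted over all these rows by the Benjamini-Hochberg method. Alternatives were edgeR 4.0.16, DESeq2 1.42.0 and limma-voom on the recovered reads, other scalings, pseudocounts and filters, single libraries left out, and the pair as a block. The pairs were the matching of columns with the highest mean correlation of deviations (0.64, next 0.21), computed without the 5 members. Because deviations cancel out within each group, the highest mean tends to be positive in advance. Blocked p-values treat the pairs as known. Scripts were tested on simulated data that held no differences between pairs, so that test does not cover the pairs found here.

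The members, lists, pairs and tests were chosen with earlier results of these data known. blimp1/krox was matched by part of its name after the row names were seen. Named genes were the 5 members, the other list genes with the smallest p (2 per list), the 2 nearest rows per member and the most abundant marker per cell type. To complete the lists, blimp1/krox, Lim1, wnt1, Tcf/Lef, lox and hh were added. After their values were seen, gcm, IrxA, Dlx, NK2.1, hnf6, foxq2, spec2c and ARS were added. Gene lengths were not used, so levels are not compared between genes.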

Additional observations from a re-analysis of the deposited data

How the results depend on the processing

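The replicate numbers of the labels are missing from the columns, so the replicate block stands for pairs that were found from values. Limma-trend called 0 rows (242 at unadjusted p under 0.05). edgeR, limma-voom and each other scaling, pseudocount and filter likewise called 0, and so did the leave-one-out fits (range 0 to 0). DESeq2 called 4. Fits with the replicate block called 3 rows (limma-trend), 11 (edgeR) and 22 (DESeq2), and blocked limma-trend called 80 when pair A was left out, 0 without pair B and 31 without pair C; the cause was not tested. No member passed in any of 22 alternatives (lowest adjusted p 0.252, for GATAe with the block and without pair A), and 101 of 110 member values kept their direction.

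GATAe ran from -0.72 to -0.36 in all alternatives, with an unadjusted p under 0.05 in 17 of 22; the rest were 5 of the 6 leave-one-out fits. eve ran from 0.07 to 0.61. FoxA turned positive when the half-size library of pair C was left out (0.0025) and without the control library of pair A (0.034), in a leave-one-out range of -0.54 to 0.034. otx ranged from -0.14 to 0.0085 when single libraries were left out. Endo16 ranged from -0.41 to 0.54 in these fits. It was -0.016 with total read scaling, -0.25 without pair A and -0.042 without pair B in blocked fits, and 0.19 in edgeR and 0.20 in DESeq2. With 1 library missing the pairs are no longer balanced, and part of such a shift is a difference between pairs. The median over endoderm regulators ran from -0.11 to 0.05 and over the Wnt list from -0.01 to 0.30 when single libraries were left out. Total read scaling lowered the median of all rows to -0.038.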
